A study of Mus with 14 samples.

Results

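Pira2, Eps8l1, Dnaaf3 and Isoc2b lie close together on proximal chromosome 7 of the mouse and were examined as a set in donor-derived blood progenitors. They are 4 of the 32285 genes listed in each count matrix, and all 4 passed the filter on low counts that left 15622 genes. The set was named with group levels of these data in view, so the differences of the 4 genes between groups are described below without a test. Cells came from 14 mice in 4 labelled groups, with 3 mice each in MxCre and Dnmt3a;Tnfr1KO and 4 mice each in Dnmt3a and Dnmt3a;Tnfr2KO. MxCre denotes a Cre recombinase under the interferon-responsive Mx1 promoter, which is active in blood cells and in other tissues. It was induced by poly(I:C) in primary transplant recipients, and the MxCre mice serve as the control that carries the recombinase alone. The labels do not state the Dnmt3a allele or the strain of the donors. Tnfr1 and Tnfr2, the products of Tnfrsf1a and Tnfrsf1b, are the receptors of the cytokine TNF-alpha. In all groups CD45.2+ donor marrow, first mixed with competitor marrow, had passed through a primary and then a secondary aged, lethally irradiated host. Secondary hosts were harvested after 20 weeks, and CD45.2+ cells negative for lineage markers and positive for Kit were sorted for droplet 3' RNA sequencing. The labels do not say which primary hosts supplied which mice, so the spread between mice may be partly technical and p-values measure that spread alone.

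Paired immunoglobulin-like receptors of mice come in activating (A) and inhibitory (B) forms that bind MHC class I molecules on other cells. Pira2 encodes an activating form, which signals through the Fc receptor gamma chain encoded by Fcer1g, and Pirb encodes the inhibitory form; both are best known from myeloid cells, mast cells and B cells. Eps8l1 encodes a relative of EPS8, an adaptor that links growth factor receptors to actin remodelling through Abi1, Sos1 and Rac. Dnaaf3 encodes a factor that assembles dynein arms in the cytoplasm before they enter motile cilia, organelles that blood cells do not carry. Isoc2b encodes a protein with an isochorismatase domain and has a neighbouring relative, Isoc2a.

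In the RefSeq table for GRCm38, the build named in the submitters' processing notes, the span from Pira2 to Isoc2b covered 1029 kb and held 51 annotated genes. Pira2 (ENSMUSG00000089942) was at chr7:3836808-3845104 and overlapped no other gene. Eps8l1 (ENSMUSG00000006154) was at chr7:4460638-4480487, 615.5 kb further on, and overlapped Rdh13 and D630041G03Rik. Dnaaf3 (ENSMUSG00000055809) was at chr7:4522933-4532488, 42.4 kb beyond Eps8l1 and 215 bases after Tnni3. Isoc2b (ENSMUSG00000052605) was at chr7:4844959-4866179, 312.5 kb beyond Dnaaf3, overlapped Gm36127 and ended 10874 bases before Isoc2a. The 3 gaps mean that the genes are near each other without being adjacent. Reads of near-identical receptor genes next to Pira2, of the pair Isoc2a and Isoc2b, and of the genes that overlap Eps8l1 and Isoc2b may have been assigned to a neighbour, so these 3 genes carry that uncertainty.

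Total counts ran from 62416022 to 162869740 unique molecular identifiers (UMIs) per library, and 1924 to 7265 cells were kept. Dnmt3a replicate 1 kept 26.5% of its barcodes against 63.2% to 91.6% in the other 13 libraries, and Dnmt3a replicate 4 held 2065 B-lymphoid-like cells where no other library had more than 222. Any pair of libraries shared at most 16 cell barcodes. Kit, the gene of the sorted surface marker, was present in all 14 libraries at 69.1 to 182 UMIs per 1000000 UMIs of the library (CPM); this range is without, and all levels summed over the kept cells below are with, the library size factors of edgeR (TMM). Tnfrsf1b averaged 5.04 ± 0.527 CPM (SD, n = 4) in Dnmt3a;Tnfr2KO and 13.7 ± 1.38 CPM (n = 4) in Dnmt3a, and its log2 fold change was -1.44 (SE 0.162, adjusted p = 5.79e-04 by edgeR). Tnfrsf1a averaged 38.2 ± 4.34 CPM (n = 3) in Dnmt3a;Tnfr1KO and 43.6 ± 9.25 CPM (n = 4) in Dnmt3a, with a log2 fold change of -0.19 (SE 0.187, edgeR adjusted p = 0.597). The Tnfrsf1a level therefore did not distinguish the libraries labelled Dnmt3a;Tnfr1KO, which are written Tnfr1KO-labelled below, while Dnmt3a;Tnfr2KO is written Tnfr2KO. Dnmt3a itself averaged 24.6 ± 3.25 CPM (n = 3) in MxCre and 30.5 ± 2.12 CPM (n = 4) in Dnmt3a. The Tnfr1KO-labelled mice, at 21.9 ± 0.580 CPM (n = 3), and the Tnfr2KO mice, at 23.7 ± 1.17 CPM (n = 4), all lay below the lowest Dnmt3a mouse (28.0 CPM). Against Dnmt3a its log2 fold change was -0.48 in Tnfr1KO-labelled mice (SE 0.0964, edgeR adjusted p = 0.0491, range over the alternatives 0.00127 to 0.191, with the call held in 4 of the 14 analyses that left out 1 mouse). In Tnfr2KO mice it was -0.37 (SE 0.0884, edgeR adjusted p = 0.0613, range 0.00844 to 0.205). The Dnmt3a level thus did not set the Dnmt3a-labelled groups apart from MxCre in 1 direction. A 3' tag does not check a deletion elsewhere in a transcript.

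The 4 genes did not move in one direction. In the 7 mice with a receptor knockout label (Tnfr1KO-labelled and Tnfr2KO), Eps8l1 was nearly absent and Dnaaf3 stood 3.95-fold higher on average than in the 7 other mice. Isoc2b was 2.55-fold lower on average, with overlap through Dnmt3a replicate 1. Pira2 was higher without overlap in progenitors of basophils and mast cells and in the most immature cells. In monocyte progenitors the mice overlapped, and the direction of the Pira2 means turned on Dnmt3a replicate 4: the ratio with over without a label was 0.780 with that mouse and 1.75 without it. In the sums over all kept cells, fewer cells of a type and less RNA per cell cannot be told apart.

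Pira2, the activating receptor, had 0.380, 1.37 and 0.596 CPM in MxCre replicates 1 to 3. Dnmt3a replicates 1 to 4 had 0.330, 0.426, 0.264 and 4.57 CPM. Dnmt3a replicates 1 to 3 thus lay at the lower end of the MxCre range or below it, and replicate 4 lay above all other mice of the study. The Tnfr1KO-labelled mice had 1.88, 2.41 and 2.77 CPM, and the Tnfr2KO mice had 1.60, 1.69, 1.51 and 1.26 CPM. Tnfr1KO-labelled mice were all above the MxCre mice and above the Tnfr2KO mice, whereas Tnfr2KO overlapped MxCre through MxCre replicate 2. In order of means, Pira2 stood at 2.36 ± 0.447 CPM in Tnfr1KO-labelled (SD, n = 3), at 1.51 ± 0.185 in Tnfr2KO (n = 4), at 1.40 ± 2.12 in Dnmt3a (n = 4) and at 0.781 ± 0.519 in MxCre mice (n = 3). Of the neighbours in this order, the first pair did not overlap and the other pairs did. The log2 fold change of Tnfr1KO-labelled against Dnmt3a was 0.75 (SE 0.801) with all mice and 2.80 without Dnmt3a replicate 4. For Tnfr2KO against Dnmt3a it was 0.11 (SE 0.747) with all mice and 2.16 without that replicate, and for Dnmt3a against MxCre the value of 0.86 (SE 0.837) turned to -1.18. Leaving out Dnmt3a replicate 1, 2 or 3 instead also turned the value of Tnfr2KO against Dnmt3a, to -0.25 at the lowest. In Dnmt3a replicate 4 the Pirb level was also the highest of the study, at 22.02 CPM. The summed level of the monocyte marker list was 553.5 CPM in this mouse and 333.6 CPM in the lowest Dnmt3a mouse, and the macrophage list stood at 27.5 CPM against 2.94 to 13.98 CPM in the other Dnmt3a mice. Cells assigned as monocyte-like by the rule given below were the smallest share of its group, 421 of 5422 kept cells. Replicates 1 to 3 had 402 of 1924, 414 of 2695 and 1037 of 5478. Within monocyte-like cells Pira2 stood at 16.3 CPM in this mouse and at 0.610 to 1.74 CPM in the other Dnmt3a mice. The part of monocytes and macrophages in its Pira2 level was not tested.

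Eps8l1, the EPS8 relative, had 3.47, 3.12 and 3.005 CPM in MxCre replicates 1 to 3 and 3.44, 4.23, 2.97 and 2.19 CPM in Dnmt3a replicates 1 to 4. These 2 groups overlapped and had means of 3.20 ± 0.240 (SD, n = 3) and 3.21 ± 0.855 CPM (n = 4). In the Tnfr1KO-labelled mice only 1, 7 and 6 UMIs of Eps8l1 were counted, and in the Tnfr2KO mice 1, 4, 1 and 2 UMIs. All 7 mice had at most 0.0784 CPM, where the lowest of the other 7 had 2.19 CPM, and the ranges of the 2 knockout-labelled groups met. Their means were 0.0554 ± 0.0393 (n = 3) and 0.0152 ± 0.0088 CPM (n = 4). Summed over mice, 22 UMIs stood against 2235 UMIs, a 122-fold lower rate per UMI sequenced (exact 95% interval 80.6 to 196, counting error only). Against Dnmt3a alone the rate was 67.6-fold lower in Tnfr1KO-labelled mice (40.1 to 124) and 221-fold lower in Tnfr2KO mice (112 to 513), and it was 3.27-fold lower in Tnfr2KO than in Tnfr1KO-labelled mice (1.28 to 8.99). Tnfr1KO-labelled replicate 1, with its 1 UMI, moved these values: without it the first was 43.7-fold (25.5 to 82.3) and the last 5.05-fold (1.94 to 14.1). Without replicate 2 or 3 of that group the last was 2.42-fold (0.747 to 7.64) or 2.58-fold (0.844 to 7.89), so the difference between the 2 knockout-labelled groups rests on few UMIs of single mice. Rdh13, which overlaps Eps8l1 in the annotation, ran from 4.04 to 7.31 CPM in the 14 mice, and Ppp1r12c, the next gene beyond Eps8l1, ran from 26.8 to 36.4 CPM. For both genes the knockout-labelled mice overlapped the others.

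Dnaaf3, the dynein arm assembly factor, had 1.06, 1.27 and 1.72 CPM in MxCre and 0.990, 1.28, 2.37 and 1.54 CPM in Dnmt3a. The 2 groups overlapped, at means of 1.35 ± 0.335 (SD, n = 3) and 1.55 ± 0.595 CPM (n = 4). Tnfr1KO-labelled mice had 5.87, 6.03 and 5.29 CPM, close together, while the Tnfr2KO mice fell into a lower pair, replicates 1 and 2 with 3.47 and 3.43 CPM, and a higher pair, replicates 3 and 4 with 8.40 and 7.88 CPM. The group means were almost equal, 5.73 ± 0.385 (n = 3) and 5.80 ± 2.72 CPM (n = 4), but the Tnfr1KO-labelled mice lay between the 2 pairs of Tnfr2KO mice. All 7 knockout-labelled mice were above all 7 others. Set against Dnmt3a, the log2 fold changes were 1.88 (SE 0.356) for Tnfr1KO-labelled and 1.90 (SE 0.339) for Tnfr2KO mice, and against MxCre they were 2.09 (SE 0.396) and 2.10 (SE 0.381). These comparisons share their control mice.

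Isoc2b, the isochorismatase-domain gene, had 9.39, 9.86 and 9.83 CPM in MxCre. Dnmt3a replicates 1 to 4 had 4.44, 8.13, 7.59 and 7.86 CPM. Dnmt3a was thus below MxCre in all 4 mice, and replicate 1, the library with the low share of kept barcodes, was the lowest of them. In Tnfr1KO-labelled mice there were 2.04, 1.73 and 2.47 CPM, and the Tnfr2KO mice had 2.24, 2.24, 5.63 and 6.03 CPM in replicates 1 to 4. Replicates 1 and 2 of Tnfr2KO were therefore at the Tnfr1KO-labelled level, and replicates 3 and 4 exceeded the lowest Dnmt3a mouse. These are also the 2 Tnfr2KO mice with the higher Dnaaf3. In order of means the groups were MxCre (9.69 ± 0.263 CPM, SD, n = 3), Dnmt3a (7.01 ± 1.72, n = 4), Tnfr2KO (4.03 ± 2.08, n = 4) and Tnfr1KO-labelled (2.08 ± 0.370, n = 3). The first pair of neighbours did not overlap and the other 2 pairs did. The log2 fold change was -2.22 (SE 0.378) in Tnfr1KO-labelled and -1.26 (SE 0.335) in Tnfr2KO against MxCre, and -1.75 (SE 0.358) and -0.80 (SE 0.313) against Dnmt3a. Without Dnmt3a replicate 1 the latter 2 were -1.92 and -0.98. For Dnmt3a against MxCre the value was -0.47 (SE 0.334) with and -0.31 without that replicate.

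**Figure D1:**
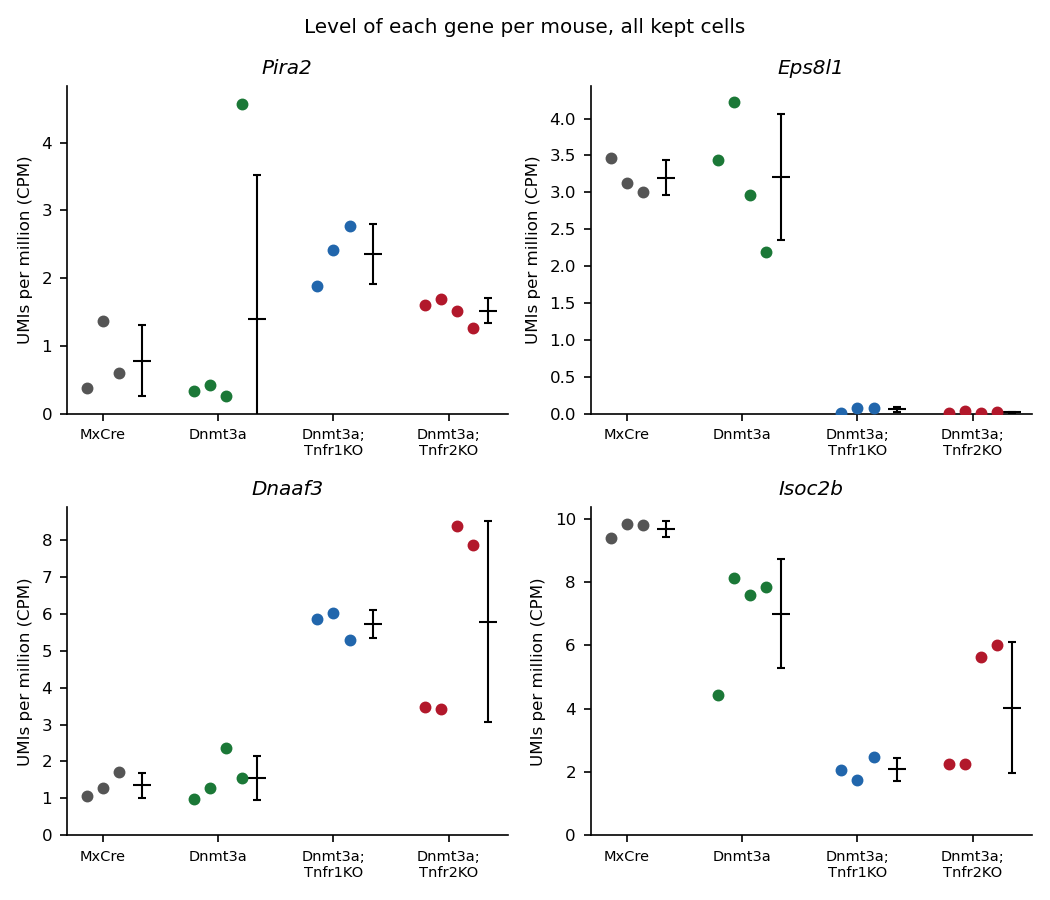
Level of Pira2, Eps8l1, Dnaaf3 and Isoc2b in CPM (vertical axes, from 0) in each of the 14 mice by group, with 1 point per mouse and the group mean ± SD in black, the bar for Pira2 in Dnmt3a being truncated at 0. Eps8l1 lies at or below 0.0784 CPM in the 7 mice with a receptor knockout label, and Dnaaf3 and Isoc2b split the 4 Tnfr2KO mice into the same pairs.

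The number of the 4 genes whose groups did not overlap was set beside the share of all 15622 tested genes that did not overlap. In Dnmt3a against MxCre only Isoc2b did not overlap, where 19.2% of all genes did not. In Tnfr1KO-labelled against MxCre all 4 genes did not overlap (22.1% of all genes), and in Tnfr2KO against MxCre 3 did not (17.4%), the exception being Pira2. Against Dnmt3a, 3 genes did not overlap in Tnfr1KO-labelled mice (14.3%) and 2, Eps8l1 and Dnaaf3, in Tnfr2KO mice (9.36%). Between Tnfr2KO and Tnfr1KO-labelled mice only Pira2 did not overlap (5.6%). When the 7 knockout-labelled mice were set against the 7 others, a grouping made after the data had been seen, Eps8l1 and Dnaaf3 did not overlap, as did 77 genes or 0.493% of all. These shares are a description only, since the 4 genes were chosen on the same contrasts.

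Levels were then compared between lineages within each mouse. The genes were named with group levels in view, and other earlier results of these data were known. The p-values below may therefore not be independent of that choice. A cell was assigned to the lineage with the highest share of its markers present, if that share was at least 50%. This placed 58.5% to 89.7% of kept cells, and 6 lineages had at least 20 cells in 12 or more mice. For each gene the CPM in a lineage, here without TMM scaling, was compared with the CPM in all other assigned cells of the same mouse by an exact two-sided sign-flip permutation test over mice, adjusted over all 24 tests.

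Pira2 was higher in monocyte-like cells than in the rest and lower in granulocyte-like and erythroid-like cells. In monocyte-like cells it averaged 3.35 CPM against 0.761 CPM in other cells and was higher in 14 of 14 mice, by 2.59 CPM with and 1.66 CPM without Dnmt3a replicate 4 (exact adjusted p = 5.86e-04, with the unadjusted p at 1.22e-04, the smallest that 14 mice allow). It was lower in granulocyte-like cells (0.554 against 2.07 CPM) and in erythroid-like cells (0.170 against 1.37 CPM) in 14 of 14 mice each, both at the same exact adjusted p of 5.86e-04. The erythroid-like cells held only 20 Pira2 UMIs with and 3 without a knockout label, and mice with no UMI count as lower. In basophil/mast-like cells it averaged 4.54 against 1.19 CPM and was higher in 11 of 14 mice (exact adjusted p = 0.0232). In the 7 mice without a knockout label, however, the gene was higher in 4 and lower in 3 mice in this last lineage, with a mean difference of -0.47 CPM (exact permutation adjusted p = 0.701, range over all alternatives 0.0123 to 0.701). The negative mean rested on Dnmt3a replicate 4, which had no UMI there against 3.53 CPM in its other cells; the mean over the other 6 mice was 0.0445 CPM. Pira2 was lower in megakaryocyte-like cells, 0.718 against 1.19 CPM over 12 mice (exact adjusted p = 0.0254), a call that was lost without MxCre replicate 2 (difference -0.42 CPM, exact permutation adjusted p = 0.0508, range over all alternatives 0.00996 to 0.107). It was lower in 5 of the 5 mice without a knockout label that could be compared, which held 4 Pira2 UMIs there in all. In HSC/MPP-like cells, the stem and multipotent cells, the exact permutation test did not pass (1.003 against 1.30 CPM, adjusted p = 0.493). The difference of -0.30 CPM was -0.048 CPM without Dnmt3a replicate 4. In the 7 mice without a knockout label it was -0.81 CPM, lower in 6 of 7, and -0.35 CPM without that mouse (exact permutation adjusted p = 0.0938 with it, range over all alternatives 0.0656 to 0.939).

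Eps8l1 was higher in the most immature cells than in the rest and lower in erythroid-like cells. As the knockout-labelled mice held 22 UMIs of the gene in all, the contrast is given for the 7 other mice, and tests over 14 mice are not used for it. In the 7 mice HSC/MPP-like cells averaged 7.07 ± 0.624 CPM (SD, n = 7) and other cells 2.42 ± 0.529 CPM, higher in 7 of 7 mice. Erythroid-like cells had 1.74 against 3.19 CPM, lower in 7 of 7. Both had an exact permutation adjusted p of 0.0469, from the smallest unadjusted p that 7 mice allow (0.0156). Any adjusted p of 0.0469 over these 7 mice rests on other tests of the 24, also of the other genes, reaching that same smallest p. The restriction to these 7 mice was chosen after the data were seen. Granulocyte-like cells (2.12 against 3.64 CPM) and monocyte-like cells (2.08 against 3.27 CPM) were lower in 6 of 7 mice each, and basophil/mast-like cells (5.77 against 2.98 CPM) were higher in 6 of 7. None of these 3 passed (exact permutation adjusted p = 0.0682 for each). Megakaryocyte-like cells were higher in 5 of 5 mice (5.68 against 3.10 CPM), where an exact test allows no p below 0.0625. Dnmt3a replicate 1 had 11.8 CPM there and the other 4 mice 3.74 to 4.66 CPM, so the mean difference of 2.58 CPM was 1.23 CPM without it.

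Dnaaf3 was also higher in the most immature cells and lower in erythroid-like cells. HSC/MPP-like cells had 5.66 against 3.14 CPM in other cells, higher in 14 of 14 mice, and erythroid-like cells had 1.17 against 3.53 CPM, lower in 14 of 14 (exact permutation adjusted p = 5.86e-04 for each). Both differences also held in the 7 mice without a knockout label, at 2.63 against 1.37 CPM and 0.567 against 1.60 CPM (exact permutation adjusted p = 0.0469 for each, the highest of their alternatives, the lowest being 5.86e-04). A higher level in megakaryocyte-like cells (5.81 against 3.54 CPM over 12 mice, exact permutation adjusted p = 0.0491) was lost in 11 of the 14 analyses without 1 mouse and stood at a difference of -0.09 CPM in the 5 mice without a label that could be compared, with 3 higher and 2 lower (range of adjusted p over all alternatives 0.0343 to 0.75). Monocyte-like cells passed only without Dnmt3a replicate 4 (difference -0.44 CPM, exact permutation adjusted p = 0.0180, against 0.119 with it and a range of 0.0180 to 0.551). Granulocyte-like and basophil/mast-like cells did not pass (exact permutation adjusted p = 0.677 and 0.409).

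Isoc2b was lower in erythroid-like cells and higher in megakaryocyte-like and basophil/mast-like cells. The exact permutation test did not pass for HSC/MPP-like (5.94 against 5.68 CPM, adjusted p = 0.717, the difference turning to -0.14 CPM without MxCre replicate 3), granulocyte-like (adjusted p = 0.564) or monocyte-like cells (adjusted p = 0.531). Erythroid-like cells had 3.62 against 5.94 CPM and were lower in 12 of 14 mice (exact adjusted p = 0.00502). Megakaryocyte-like cells had 7.40 against 5.23 CPM, higher in 11 of 12 mice, and basophil/mast-like cells 8.35 against 5.68 CPM, higher in 12 of 14 mice (exact permutation adjusted p = 0.00502 and 0.00618). The megakaryocyte-like call ended under a stricter marker rule (difference 1.94 CPM, exact permutation adjusted p = 0.05, range over all alternatives 0.00391 to 0.188). In the mice without a knockout label, basophil/mast-like cells were higher in 5 of 7, by 2.92 CPM with and 1.94 CPM without MxCre replicate 3 (exact permutation adjusted p = 0.15, the highest of the alternatives, the lowest being 0.00195). Megakaryocyte-like cells could be compared in only 5 such mice, in which an exact test allows no p below 0.0625, and were higher in 4 of them. Erythroid-like cells were thus the lineage in which all 4 genes were lower than in other cells, over 14 mice for 3 of them and over 7 for Eps8l1. The share of all tested genes that were lower there is not given here. These CPM are also without TMM scaling. Neither the count nor the lower level of any single gene there is therefore read as a trait of the 4 genes.

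**Figure D2:**
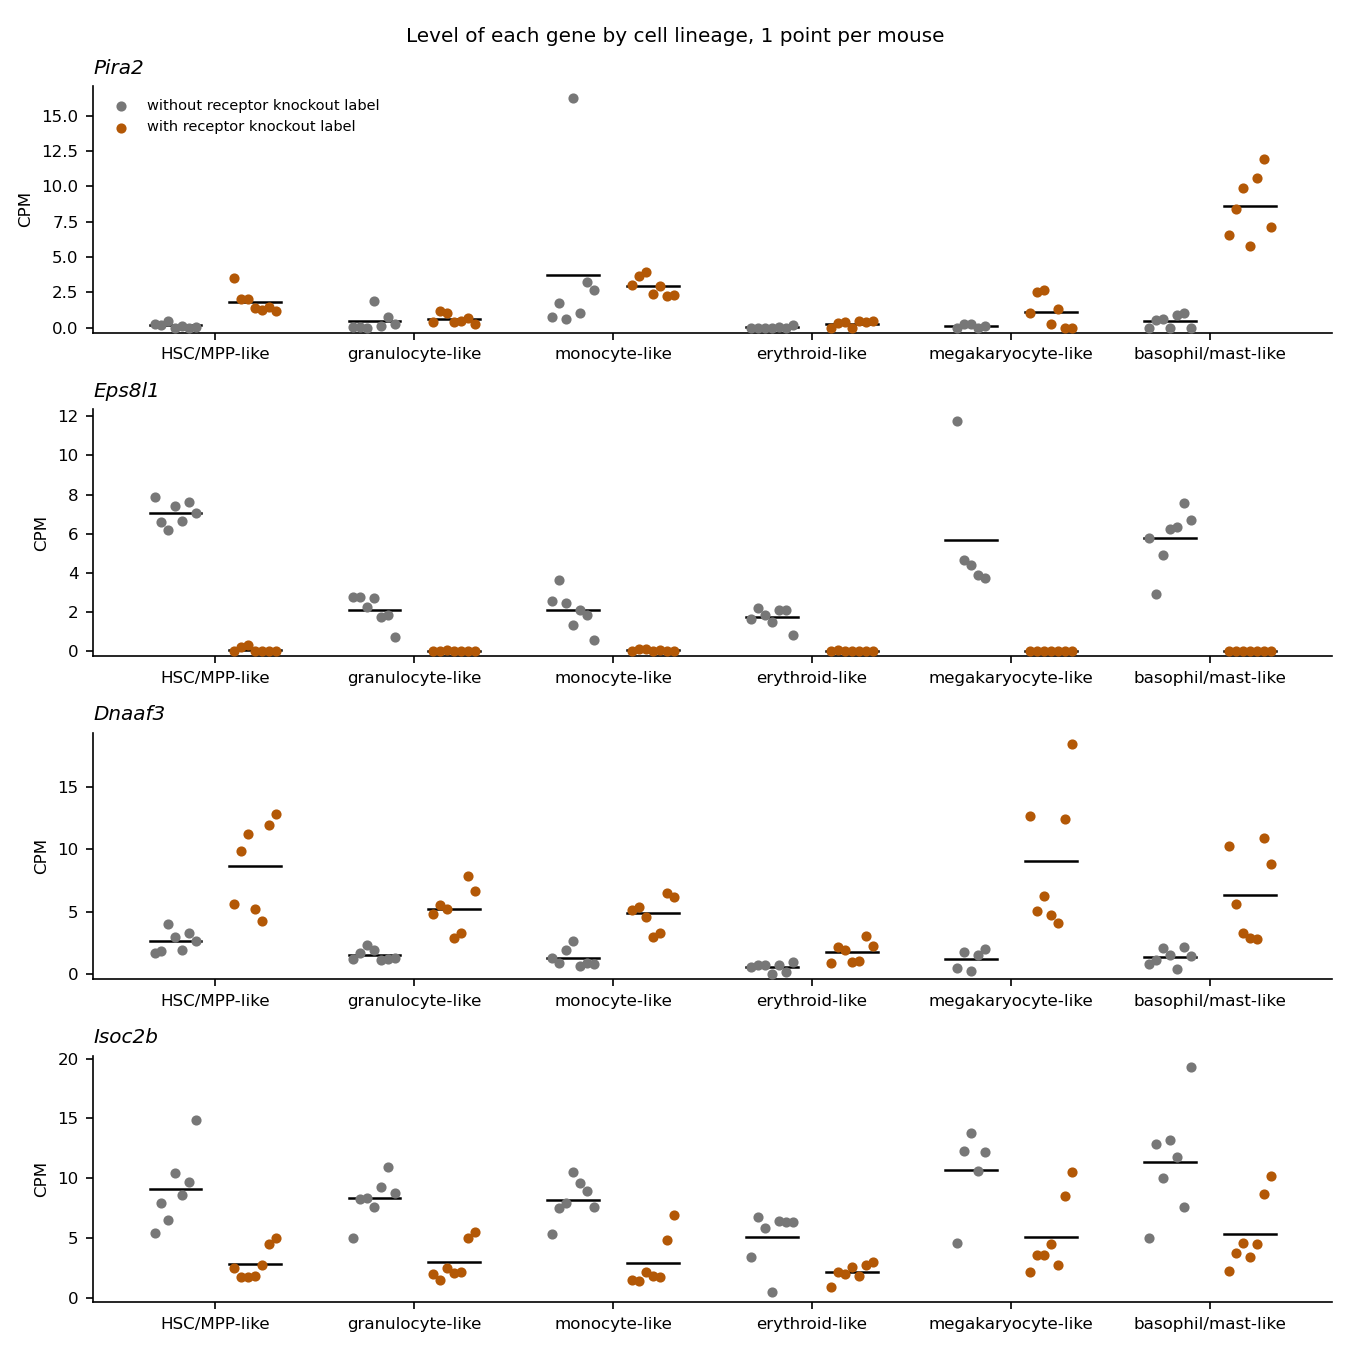
Level in CPM (vertical axes) of each gene in 6 lineages named by marker UMIs, with 1 point per mouse that had at least 20 cells, grey for the 7 mice without and orange for the 7 with a receptor knockout label, and black lines for the means. Pira2 separates the mice in basophil/mast-like and HSC/MPP-like cells but not in monocyte-like cells, and Eps8l1 is at or near 0 in orange points of every lineage.

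Within lineages the group pattern was described for the 7 knockout-labelled mice against the 7 others, beside the share of genes of at least 1 CPM that did not overlap in that lineage and direction. Eps8l1 in every lineage, and Pira2 in HSC/MPP-like and basophil/mast-like cells, averaged at least 1 CPM only in the mice where they were higher. The shares beside them are therefore a description only. In HSC/MPP-like cells all 4 genes did not overlap, Pira2 and Dnaaf3 being higher (0.068% of genes) and Eps8l1 and Isoc2b lower (0.383%). In granulocyte-like cells Dnaaf3 was higher (0.0454%) and Eps8l1 lower (0.245%) without overlap, and in monocyte-like cells the same 2 genes did not overlap (0.0454% higher, 0.318% lower). In megakaryocyte-like cells these were again Dnaaf3 (0.096%) and Eps8l1 (0.358%). Basophil/mast-like cells added Pira2 to Dnaaf3 among the higher genes (0.0783%), with Eps8l1 lower (0.0261%). In erythroid-like cells only Eps8l1 did not overlap, being lower (0.0187%), and none of the 4 was higher without overlap (0.0374%). The overlap of Dnaaf3 there ended without MxCre replicate 3, so erythroid-like cells are not set apart from the other lineages by it.

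Pira2 in knockout-labelled mice stood out from the other mice in basophil/mast-like and HSC/MPP-like cells. In basophil/mast-like cells, the MxCre mice had 4, 1 and 0 UMIs and the Dnmt3a mice 0, 1, 3 and 0, or 0 to 1.08 CPM. The Tnfr1KO-labelled mice had 6.60, 8.43 and 9.88 CPM and the Tnfr2KO mice 5.80, 10.6, 11.95 and 7.14 CPM. All 7 were therefore above all others, at 8.63 ± 2.27 CPM (SD, n = 7) against 0.457 ± 0.458 (n = 7), an 18.9-fold ratio that rests on 141 and 9 UMIs. These cells numbered 82 to 327 per knockout-labelled mouse and 40 to 249 per other mouse, and the summed level of their 7 markers was 2285 to 4169 CPM in the former and 1834 to 11660 CPM in the latter. Within the list, the basophil protease gene Mcpt8 ran from 178 to 1010 CPM and from 122 to 2312 CPM in the same order. The ranges of the summed markers and of Mcpt8 overlapped, and the highest values, 11660 and 2312 CPM, were both of Dnmt3a replicate 4. The part of the make-up of these cells in the Pira2 difference was not tested. Pirb, the inhibitory counterpart, overlapped in these cells, at 6.63 ± 2.83 CPM (n = 7) with and 4.35 ± 3.50 CPM (n = 7) without a knockout label.

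In HSC/MPP-like cells Pira2 had 1.18 to 3.50 CPM in knockout-labelled mice and 0 to 0.457 CPM in the others, with means of 1.84 ± 0.809 and 0.168 ± 0.168 CPM (SD, n = 7 each), a 10.9-fold ratio from 70 and 13 UMIs. In monocyte-like cells, where Pira2 was abundant, the MxCre mice had 1.05, 3.21 and 2.68 CPM and the Dnmt3a mice 0.769, 1.74, 0.610 and 16.3 CPM. With a knockout label, the Tnfr1KO-labelled mice had 3.05, 3.65 and 3.93 CPM and the Tnfr2KO mice 2.41, 2.95, 2.22 and 2.35 CPM. The knockout-labelled range lay within that of the other mice, which Dnmt3a replicate 4 extended. The means were 2.94 CPM with and 3.76 CPM without a knockout label, and the latter was 1.68 CPM without Dnmt3a replicate 4. All 7 knockout-labelled mice lay above Dnmt3a replicates 1 to 3. Granulocyte-like cells also overlapped, at 0.658 ± 0.339 with and 0.450 ± 0.676 CPM without a knockout label (SD, n = 7 each). Dnmt3a replicate 4 held 112 of the 146 Pira2 UMIs of the latter, whose mean was 0.214 CPM without it, so that the ratio moved from 1.46 to 3.07. In erythroid-like and megakaryocyte-like cells, 20 against 3 and 17 against 4 UMIs were counted, and mice with no UMI occurred on both sides. The erythroid ratio of 8.44 became 21.4 without MxCre replicate 3.

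Eps8l1 was nearly absent from every lineage of the knockout-labelled mice. HSC/MPP-like cells of these mice had 3 UMIs in all, against 481 UMIs and 6.17 to 7.89 CPM in the 7 others. Megakaryocyte-like and basophil/mast-like cells of the knockout-labelled mice had no UMI. With a floor of 3 UMIs over the group, the pooled level of the other mice was at least 22.4-fold and 31.4-fold higher, respectively. In each of the 6 lineages the highest knockout-labelled mouse lay below the lowest other mouse.

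Dnaaf3 stood higher in knockout-labelled mice in each of the 6 lineages on average. In HSC/MPP-like cells the Tnfr1KO-labelled mice had 5.60, 9.82 and 11.2 CPM and the Tnfr2KO mice 5.25, 4.27, 11.9 and 12.8 CPM, against 1.70 to 4.001 CPM in the 7 others. The ratio of means was 3.30 there, 3.35 in granulocyte-like, 3.68 in monocyte-like, 7.43 in megakaryocyte-like and 4.56 in basophil/mast-like cells. In erythroid-like cells, where the gene was low, it was 3.14 with overlap. Tnfr2KO replicates 3 and 4 were above replicates 1 and 2 in HSC/MPP-like cells as in the sum over all cells.

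Isoc2b in HSC/MPP-like cells had 2.45, 1.69 and 1.72 CPM in Tnfr1KO-labelled mice and 1.82, 2.75, 4.47 and 4.95 CPM in Tnfr2KO mice. The 7 other mice had 5.38 to 14.9 CPM, so the sets did not overlap there. In the other 5 lineages the ratio of means without over with a label was 2.11 to 2.83 and the mice overlapped. In 4 of these 5 the overlap rested on a single mouse, Dnmt3a replicate 1 in granulocyte-, monocyte- (or there Tnfr2KO replicate 4) and megakaryocyte-like and Dnmt3a replicate 4 in erythroid-like cells, so HSC/MPP-like cells are not set apart from them by it. B-lymphoid-like cells reached 20 in 6 mice only. In these Pira2 was at 0.792, 1.07 and 0.628 CPM in Dnmt3a replicates 1, 3 and 4 (1, 1 and 11 UMIs), at 7.28 and 13.8 CPM in Tnfr1KO-labelled replicates 2 and 3 (6 and 5 UMIs) and at 7.91 CPM in MxCre replicate 3 (1 UMI in 24 cells). Isoc2b was at 12.7, 5.33 and 12.3 CPM in the same Dnmt3a mice, at 2.43 and 2.76 CPM in the Tnfr1KO-labelled mice (2 and 1 UMIs) and without a UMI in the MxCre mouse, where 3 UMIs would be 23.7 CPM.

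The relatives of the 4 genes were examined next, beginning with Pirb, the inhibitory counterpart of Pira2. Per 100 Pirb UMIs there were 12.05, 14.2 and 15.9 Pira2 UMIs in MxCre and 31.3, 31.8, 14.4 and 20.8 in Dnmt3a. Tnfr1KO-labelled mice had 80.3, 71.4 and 59.6 and the Tnfr2KO mice 101, 130.1, 23.6 and 75.0. Relative to Pirb, the high Pira2 of Dnmt3a replicate 4 was thus within the range of its group, and Tnfr2KO replicate 3 was the knockout-labelled mouse that overlapped the others. Pirb itself averaged 5.50 ± 3.57 CPM in MxCre (SD, n = 3) and 6.56 ± 10.3 CPM in Dnmt3a mice (n = 4). With a knockout label it averaged 3.46 ± 1.16 CPM (Tnfr1KO-labelled, n = 3) and 2.74 ± 2.45 CPM (Tnfr2KO, n = 4). Its log2 fold change in Tnfr1KO-labelled against Dnmt3a was -0.93 (SE 0.965, edgeR adjusted p = 0.620) and turned to 1.29 without Dnmt3a replicate 4 (edgeR adjusted p = 0.245, range over the alternatives 0.245 to 0.813).

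Isoc2a, 10874 bases from Isoc2b, averaged 3.82 ± 0.959 CPM in MxCre (SD, n = 3) and 3.23 ± 0.977 CPM in Dnmt3a mice (n = 4). With a knockout label it averaged 1.77 ± 0.445 CPM (Tnfr1KO-labelled, n = 3) and 2.17 ± 0.708 CPM (Tnfr2KO, n = 4). It was not called: the log2 fold change in Tnfr1KO-labelled against MxCre was -1.11 (SE 0.336, edgeR adjusted p = 0.165, range over the alternatives 0.0378 with DESeq2 to 0.477). Isoc2b made up 68.5%, 68.9% and 78.3% of the UMIs of both genes in MxCre and 53.02%, 66.1%, 74.2% and 78.3% in Dnmt3a. In Tnfr1KO-labelled mice the share was 55.0%, 55.5% and 52.2% and in Tnfr2KO mice 63.1%, 53.9%, 68.9% and 67.4%. The Tnfr1KO-labelled mice lay below all MxCre mice, and both overlapped Dnmt3a, whose replicate 1 had the low value of 53.02%.

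**Figure D3:**
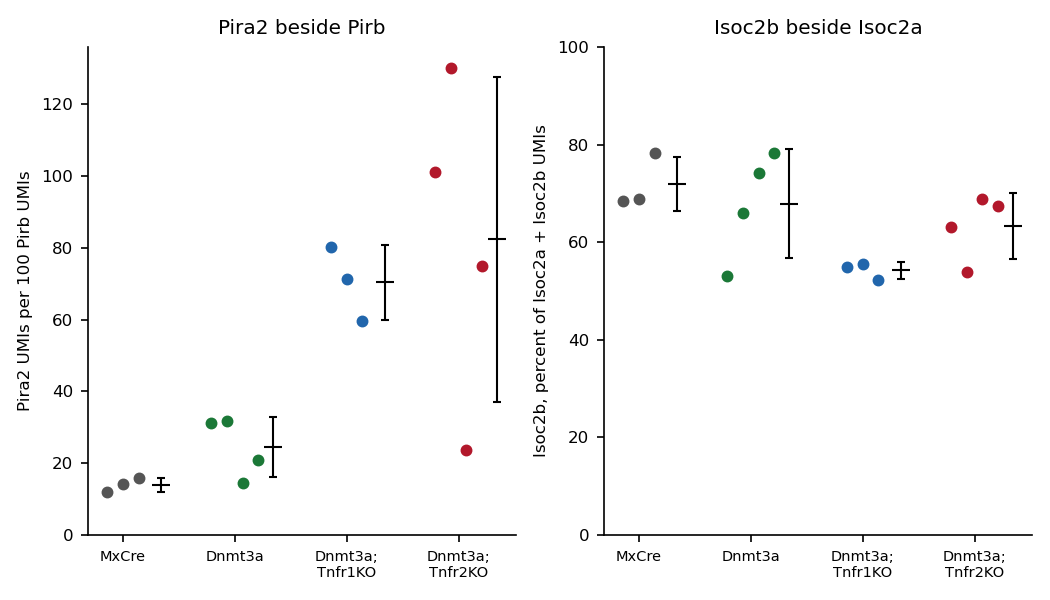
Pira2 UMIs per 100 Pirb UMIs (left) and Isoc2b as a percentage of the UMIs of Isoc2a and Isoc2b together (right) in each mouse by group, with the group mean ± SD in black. The Tnfr1KO-labelled mice have 59.6 to 80.3 Pira2 UMIs per 100 Pirb UMIs against 12.05 to 31.8 in MxCre and Dnmt3a, and 52.2% to 55.5% Isoc2b.

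Gene lists of each family were counted in the fit over all genes, in which edgeR called 374 genes in Dnmt3a against MxCre (2.39% of those tested), 48 (0.307%) and 65 (0.416%) in Tnfr1KO-labelled and Tnfr2KO against MxCre, 74 (0.474%) and 154 (0.986%) in the same groups against Dnmt3a, and 31 (0.198%) in Tnfr2KO against Tnfr1KO-labelled. Of the 11 tested genes of the paired receptor list other than Pira2, which includes the adaptor Fcer1g and the phosphatase Ptpn6, only B2m was called by edgeR, in 1 comparison. Up to 2 genes per comparison had an unadjusted p below 0.05, namely B2m and Lilra5, and DESeq2 called B2m in the same comparison. B2m encodes the light chain of MHC class I and had 783.5 ± 123 CPM (SD, n = 4) in Dnmt3a against 1190.0 ± 187 CPM (n = 3) in MxCre, a log2 fold change of -0.60 (SE 0.135, edgeR adjusted p = 0.0430). The call held in 3 of the 14 analyses that left out 1 mouse, those without Dnmt3a replicates 2 or 4 or Tnfr2KO replicate 4. None of the 8 other EPS8 genes, among them Eps8, Abi1, Sos1 and Rac2, was called by edgeR in any comparison, with up to 2 per comparison at an unadjusted p below 0.05 and 1 call by DESeq2 (Abi2 in Tnfr2KO against MxCre). None of the 12 other dynein assembly genes was called either, with up to 4 at an unadjusted p below 0.05 and DESeq2 calls of Ruvbl2 in 2 comparisons. Pira6 and 7 further Pira genes of the list matched no gene symbol of the count matrices and were not analysed. Other names of the listed genes were not searched, so these genes may be present under another name. Pira2 was thus the only Pira gene of the list matched by its symbol. The median log2 fold change of the 12 dynein assembly genes in Tnfr1KO-labelled against Dnmt3a was -0.02, with -0.05 over all tested genes. For the 8 EPS8 genes it was -0.14.

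Genes around the 4 members were counted in the same way. Within 1 Mb of the span the RefSeq table lists 141 other genes, of which 88 were matched in the matrices and 54 were tested. By edgeR, 1 of the 54 was called in Dnmt3a against MxCre and 1 in Tnfr2KO against Dnmt3a, and none in the other 4 comparisons, where 3 to 14 had an unadjusted p below 0.05 and DESeq2 called 0 to 4. Groups did not overlap for 17 of the 54 in Tnfr1KO-labelled against MxCre (31.5%, with 22.1% of all genes), 14 in Tnfr1KO-labelled against Dnmt3a (25.9%, with 14.3%) and 10 in Tnfr2KO against Dnmt3a (18.5%, with 9.36%). They did not overlap for 11 in Dnmt3a against MxCre (20.4%, with 19.2%), 7 in Tnfr2KO against MxCre (with 17.4% of all genes) and 3 between the knockout-labelled groups (5.56%, with 5.6%). No test was made of these shares. Ndufa3, a subunit of respiratory complex I, fell in Dnmt3a, with 120.8 ± 7.30 (SD, n = 4) against 247 ± 65.1 CPM (n = 3) in MxCre and a log2 fold change of -1.03 (SE 0.198, edgeR adjusted p = 0.0309). Its call was lost on leaving out any MxCre mouse, Dnmt3a replicates 1 or 3, or Tnfr1KO-labelled replicate 3 (edgeR adjusted p up to 0.106, and down to 7.73e-05 with DESeq2 among the alternatives). Rasl2-9, named because it was the only other call although it lies under 5 CPM, had 0.0255 CPM in Tnfr2KO and 0.142 CPM in Dnmt3a, a log2 fold change of -2.40 (SE 0.509, edgeR adjusted p = 0.0470) that held in 3 of the 14 analyses without 1 mouse. The median log2 fold change of the 54 neighbours was between -0.09 and 0.15 in the 6 comparisons, and that of all genes between -0.05 and 0.03.

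In the comparison of the 7 knockout-labelled mice with the 7 others, 5 of the 67 tested genes within 2 Mb of the Eps8l1 start did not overlap. As 2 of these are members chosen on such levels, the count set beside other windows is 3 of the 63 that are not members (4.76%), with 1 of 28 between 2 and 10 Mb (3.57%), 1 of 92 between 10 and 20 Mb, none of 234 between 20 and 40 Mb and 5 of 696 beyond. The 3 were Rps9, Gm15510 and Ccdc106, singled out after their values were seen. Ccdc106, 593 kb beyond the Eps8l1 start, had 0.610 to 2.62 CPM with and 0.282 to 0.550 CPM without a knockout label. Gm15510, next to it, had 0 to 0.170 against 0.185 to 0.572 CPM. Rps9, a ribosomal protein gene, differed little, with means of 4748 ± 288 and 3925 ± 475 CPM (SD, n = 7 each). Within the same window the majority of genes lay near the level of the other mice: the median absolute log2 ratio was 0.21, where it was 0.15 to 0.20 in the windows further out.

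**Figure D4:**
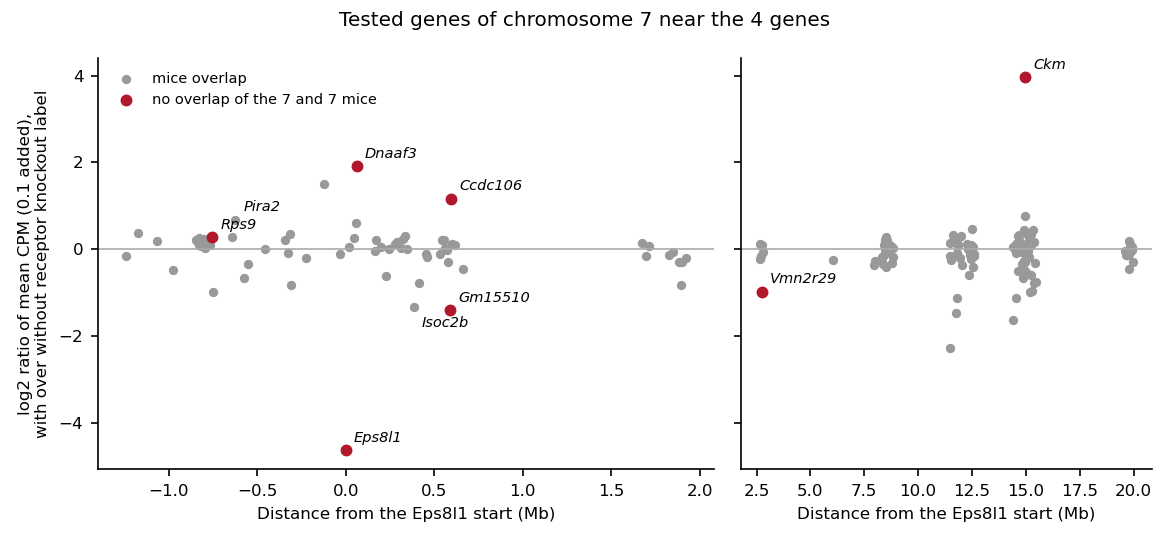
Log2 ratio of the mean CPM (0.1 CPM added to each) of the 7 mice with over the 7 without a receptor knockout label (vertical axis) for tested genes of chromosome 7, by distance in Mb from the Eps8l1 start (horizontal axes, left panel to 2 Mb, right panel 2 to 20 Mb), with genes whose mice did not overlap in red. Of the 67 genes within 2 Mb, 5 are red, and Pira2 and Isoc2b are labelled although their mice overlap.

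Finally, each of the 4 genes was compared with all tested genes by the root mean square distance of standardised log2 CPM over the 14 mice, where 0 is an identical profile. For Eps8l1 the nearest were Lins1 (0.489), Gm43031 (0.490) and Gm43065 (0.494), with a median of 1.37 over all genes. Lins1 is also on chromosome 7 but had 3.13 ± 0.164 with and 3.72 ± 0.151 CPM without a knockout label (SD, n = 7 each). For Dnaaf3 the nearest were Endog (0.418), a mitochondrial nuclease gene, Mnd1 (0.465), a meiotic recombination gene, and Nrtn (0.468), which encodes the growth factor neurturin. Mnd1 had 60.7 ± 7.76 against 28.3 ± 3.24 CPM (SD, n = 7 each). Ckm, 15 Mb away on chromosome 7, was the fifth nearest to Dnaaf3 (0.477), with means of 160 and 10.1 CPM. For Isoc2b the nearest were 1700061G19Rik (0.256), 5430431A17Rik (0.338), which is on chromosome 7, and the ribosomal protein gene Rps3a1 (0.352). For Pira2 they were Zfand2a (0.487), Ms4a4c (0.533), a gene of the MS4A membrane protein family, and Gm11827 (0.552). Among the 4 genes themselves, Eps8l1 and Isoc2b were 0.703 apart, Pira2 and Dnaaf3 0.964, and the other pairs 1.73 to 1.95. The first 2 pairs were thus the genes lower and the genes higher in knockout-labelled mice, and none of the 4 was among the 3 nearest to another.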

How the data were processed

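Droplet 3' single-cell RNA sequencing (10x version 3.1 chemistry) was analysed in 14 libraries, 1 per mouse. The deposited matrices hold raw counts of UMIs per gene and barcode, made with Cell Ranger 6.0.0 after bcl2fastq 2.20.0.422, per the submitters' processing notes, which name mm10 and GRCm38. Cells with at least 1000 UMIs, 500 genes and under 10% mitochondrial UMIs were kept, and doublets called by simulated neighbours (0.8% per 1000 cells) were removed. Counts were summed per mouse and tested with edgeR 4.0.16 (R 4.3.3; quasi-likelihood, TMM, filterByExpr, all groups in 1 model, Benjamini-Hochberg adjustment), called at an adjusted p below 0.05. The script was tested on simulated data. Lineage sums used cells assigned by marker UMIs, at least 20 cells per mouse, and exact sign-flip permutation tests over mice. Intervals of counts cover counting error only. Total counts per library are given with the results and limit precision for genes of few UMIs.

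The 4 genes, the gene and marker lists and the tests were chosen with earlier results of these data known. Named genes were the 4 members, the 3 nearest profiles of each, Pirb, Isoc2a, Pira6, the label checks, and up to 6 called genes per list with at least 5 CPM and no overlap. Alternatives were DESeq2 1.42.0, its size factors in edgeR, no filter, all barcodes, doublets kept, only the groups compared, the replicate block, each library left out, a 2 Mb window, a stricter marker rule (2 UMIs, 40%) and at least 50 cells. The restriction to mice without a receptor knockout label, the grouping of 7 against 7 mice and leaving out mice within both and in the Eps8l1 count ratios were chosen after seeing the data.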

Additional observations from a re-analysis of the deposited data

Results flagged for a closer look

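Within groups of 4 mice, the highest or lowest value was checked for its distance from the other 3 in 52 sets of gene, group and cell set, of which 7 stood apart. Chance gives about 1 in 20 for independent, continuous values, which these sets are not: 3 of the 7 are Pira2 of the same mouse in nested sets of cells, and 2 are fixed by single UMIs, so the count is not set against that rate. Pira2 in Dnmt3a replicate 4 was far above the other Dnmt3a mice over all kept cells (4.57 CPM, others 0.264 to 0.426), in monocyte-like cells (16.3 CPM, others 0.610 to 1.74) and in granulocyte-like cells (1.865 CPM, others 0 to 0.0858). Isoc2b in Dnmt3a replicate 1 was far below the others over all kept cells (4.44 CPM, others 7.59 to 8.13). Eps8l1 in granulocyte-like cells of Dnmt3a replicate 3 was low by a small amount (2.27 CPM, others 2.71 to 2.79). In Tnfr2KO mice, Eps8l1 stood apart in granulocyte-like cells of replicate 4 (0.0134 CPM) and in monocyte-like cells of replicate 2 (0.0324 CPM) because the other 3 mice had no UMI there.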

How the results depend on the processing

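DESeq2 called 1509, 494, 401, 912, 1093 and 105 genes where edgeR called 374 (Dnmt3a against MxCre), 48 and 65 (Tnfr1KO-labelled and Tnfr2KO against MxCre), 74 and 154 (the same against Dnmt3a) and 31 (Tnfr2KO against Tnfr1KO-labelled). Among neighbours it called 5, 2, 1, 4 and 6 in the first 5 of these, and 1 family gene where edgeR called 0 in 4 of them. DESeq2 size factors in edgeR gave 125 for Tnfr1KO-labelled against Dnmt3a. Fits of only the groups compared gave 7, 118, 174 and 17 genes (Dnmt3a against MxCre, both knockout-labelled groups against MxCre, Tnfr2KO against Dnmt3a), with 0 or 1 neighbours and 0 family genes, and no filter left 0 family genes and 0 neighbours where edgeR called 1. The replicate numbers are shared by the groups, but same-numbered mice did not deviate together: the correlation was over 0.1 in 6 of 19 pairs (-0.30 to 0.25), and 2 of 14 libraries correlated best with their own number. With the replicate block 140 genes were called in Dnmt3a against MxCre, 34 in Tnfr1KO-labelled against Dnmt3a and 0 family genes in the former. The block moved the Pira2 log2 fold change to 2.28 in Tnfr1KO-labelled against Dnmt3a and to -0.90 in Tnfr2KO against Tnfr1KO-labelled, and turned that of Pirb in the former to 0.74. The causes were not tested.

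Leaving out 1 mouse at a time gave 0 to 1250 called genes in Dnmt3a against MxCre, 6 to 227 and 23 to 140 in Tnfr1KO-labelled and Tnfr2KO against MxCre, 8 to 325 and 31 to 813 against Dnmt3a, and 18 to 81 in Tnfr2KO against Tnfr1KO-labelled. Called neighbours ranged from 0 to 3 in Dnmt3a against MxCre and 0 to 4 in Tnfr2KO against Dnmt3a, and called family genes from 0 to 1. The Pira2 log2 fold change ranged from -1.18 to 1.53 in Dnmt3a against MxCre, 0.40 to 2.80 in Tnfr1KO-labelled and -0.25 to 2.16 in Tnfr2KO against Dnmt3a. That of Eps8l1 in Tnfr2KO ranged from -8.005 to -7.39 against MxCre and from -8.01 to -7.39 against Dnmt3a. That of Pirb in Tnfr1KO-labelled against Dnmt3a ranged from -1.30 to 1.29, the latter without Dnmt3a replicate 4.

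Of the lineage differences in CPM, those of Pira2 in monocyte-, granulocyte- and erythroid-like cells, of Dnaaf3 in HSC/MPP- and erythroid-like cells and of Isoc2b in erythroid-like cells kept direction and call under every alternative. For Eps8l1 the 14-mouse values below include 7 mice near 0 and say nothing about stability. At least 50 cells ended the calls of Dnaaf3 in megakaryocyte-like (1.43), Eps8l1 in basophil/mast-like (1.35) and Eps8l1 in monocyte-like cells (-0.59). Keeping doublets ended those of Dnaaf3 in megakaryocyte-like (2.19) and Eps8l1 in basophil/mast-like cells (1.26). The stricter marker rule ended Dnaaf3 (0.603), Isoc2b (1.94) and Pira2 (-0.62) in megakaryocyte-like cells and added Dnaaf3 in basophil/mast-like cells (0.742). In mice without a receptor knockout label, an alternative chosen after seeing the data, Pira2 in basophil/mast-like (-0.47), Dnaaf3 in megakaryocyte-like (-0.0897) and Dnaaf3 in basophil/mast-like cells (-0.13) turned; the first is 0.0445 without Dnmt3a replicate 4, and the second rests on 5 mice, 3 of them higher. The 14-mouse calls of Eps8l1 in basophil/mast-like (2.79), granulocyte-like (-1.52) and monocyte-like (-1.20) cells and of Isoc2b in basophil/mast-like cells (2.92) ended there. Over 14 mice these differences were smaller in size, at 1.38, -0.77, -0.59 and 2.66 CPM. The missed threshold thus does not show a weaker difference, since the exact test on 7 mice allows no p below 0.0156. For megakaryocyte-like cells only 5 of these mice could be compared and no p below 0.0625 was possible, so the missed threshold of Isoc2b (2.26) and Pira2 (-0.44) says nothing about stability. Without 1 mouse the differences ranged from 1.66 (without Dnmt3a replicate 4) to 2.75 for Pira2 in monocyte-like cells, -0.55 to -0.41 for Pira2 in megakaryocyte-like cells, -0.91 to -0.58, -0.64 to -0.43 and 1.12 to 1.54 for Eps8l1 in granulocyte-, monocyte- and basophil/mast-like cells, -0.44 to -0.23 and 1.43 to 2.55 for Dnaaf3 in monocyte- and megakaryocyte-like cells, and -0.14 (without MxCre replicate 3) to 0.413 for Isoc2b in HSC/MPP-like cells.

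Depth limits Pira2 and Eps8l1, which had under 10 UMIs in many mice and lineages, and the number of mice limits every comparison between groups.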

Other observations

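Gm15873, a gene without a position in the RefSeq table used, had 1.56, 1.54 and 1.54 CPM in MxCre, 0.825, 1.24, 1.51 and 0.847 CPM in Dnmt3a, 2.95, 2.76 and 2.82 CPM in Tnfr1KO-labelled and 1.74, 1.48, 3.68 and 3.30 CPM in Tnfr2KO mice. As for Dnaaf3 and Isoc2b, Tnfr2KO replicates 3 and 4 were above replicates 1 and 2. For Ccdc106 the order of the Tnfr2KO mice was the other way, with 2.62 and 1.95 CPM in replicates 1 and 2 and 0.610 and 0.629 CPM in replicates 3 and 4. Both genes were singled out after their values were seen.

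By chromosome, the genes whose 7 knockout-labelled mice did not overlap the 7 others made up 0.898% of the 1113 tested genes of chromosome 7 that are not members (10 genes, 4 higher and 6 lower) and 1.72% of the 697 tested genes of chromosome 3, with 0.480% of the 15618 tested genes that are not members. Chromosome 16, with 1.08% of its 465 tested genes, was also above chromosome 7. Chromosomes 10 (0.701%), 6 (0.681%), 5 (0.660%) and X (0.621%) lay between chromosome 7 and the share of all genes.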
